A study of Mus musculus with 9 samples.

Results

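The phase II conjugation enzymes of the liver were taken as every gene whose name on the array begins as a cytosolic or mitochondrial glutathione transferase (Gst with the class letter a, k, m, o, p or t and a number), a glucuronosyltransferase (Ugt1, Ugt2 or Ugt3) or a sulfotransferase (Sult and a number). This rule uses names only and found 52 genes with 74 probes among the 37074 gene names on the array, of which 19 were Gst, 14 Ugt and 19 Sult genes. Each gene was represented by the brightest of its probes over the 9 arrays. Livers came from male C57BL/6N mice that had all received an adeno-associated virus directed to hepatocytes by tail vein injection, 3 samples per group. AAV-V mice received the empty vector and a regular diet, AAV-GP73 mice the same vector carrying mouse GP73 and a regular diet, and AAV-V HFD mice the empty vector and a high-fat diet. The labels give an age of 12 months to every sample, whereas the methods count time from injection, and the length of HFD feeding differs between the study's results and methods. The sources do not say whether each sample came from a single animal or from pooled animals, so that p values measure the spread between these samples only, and in whole liver fewer cells of a type and less RNA per cell cannot be told apart.

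Phase II enzymes attach a polar group to drugs, hormones, bile acids and reactive metabolites, which makes them easier to excrete. Glutathione transferases join glutathione to electrophiles, glucuronosyltransferases transfer glucuronic acid from UDP-glucuronate in the endoplasmic reticulum, and cytosolic sulfotransferases transfer a sulfonate group from the donor PAPS. In mouse liver many of these genes respond to NRF2 and to nuclear receptors, and several are expressed mainly around the central vein or in 1 sex.

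Total RNA was labelled with Cy3 and hybridised to 1-colour Agilent arrays of 60-base probes. Values below are the log2 processed signal after the 75th percentile of the 2667 probes well above background on all 9 arrays had been made equal between arrays, and they compare groups within a probe, not 1 probe with another. Between 10.2% and 10.7% of AAV-V spots were well above background, against 16.0% to 18.4% of AAV-GP73 and 13.8% to 16.7% of AAV-V HFD spots, so that the lowest measurable scaled value was 3.77 to 3.94 in AAV-V, 1.85 to 2.49 in AAV-GP73 livers and 2.04 to 2.81 in AAV-V HFD livers. A dim gene therefore has only an upper limit in AAV-V, and where it was called its change is given as a lower bound. All AAV-V and AAV-GP73 samples were hybridised on the same slide, each group in its own column, and the AAV-V HFD samples on a second one. Diet and slide therefore cannot be told apart, nor can vector and slide column between AAV-GP73 and AAV-V. Golm1, the gene of GP73, has 1 probe, which was well above background on 0 of 9 arrays and could not check the labels. All 7 hepatocyte marker genes were well above background on some array and 6 on all 9, with a summed signal of 8233 to 11210 in AAV-V, 7707 to 10133 in AAV-GP73 livers and 4088 to 8499 in AAV-V HFD livers. Markers of lymphocytes (5 genes) and of intestine and kidney (2 genes) were well above background on 0 arrays, 5 endothelial and 5 cholangiocyte genes gave 0 genes that could be tested, and of 3 macrophage and 3 stellate or fibroblast genes tested 1 of each was called higher in AAV-GP73, with 1 stellate gene lower. In AAV-V HFD 0 macrophage and 0 stellate genes were called higher and 2 stellate genes lower, with 1 and 2 genes at an unadjusted p under 0.05. Of 5 erythroid genes 4 were tested and 3 rose in AAV-GP73 against AAV-V, with a summed signal of 375 to 917 in AAV-V, 3314 to 16626 in AAV-GP73 livers and 615 to 1083 in AAV-V HFD livers. As a base for these marker counts, 33.2% of all genes tested rose and 19.4% fell by the same calls in AAV-GP73 livers. For AAV-V HFD livers the corresponding shares were 24.8% and 18.2%. The part of blood RNA in the results below was not tested.

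Of the 52 conjugation genes 25 had a signal well above background throughout at least 1 group and were tested, among 5761 genes in all: 12 of 19 Gst, 10 of 14 Ugt and 3 of 19 Sult genes. Among the 27 others, Sult1c1, Sult1c2, Sult1e1, Sult2a1 to Sult2a7, Sult2b1, Sult3a1, Sult5a1, Sult6b1, Gstm7, Gsto2, Gstt4, Ugt1a10 and Ugt1a6a were well above background on 0 of 9 arrays. Gsta2, an inducible alpha class enzyme, was so on 2 AAV-GP73 arrays and 1 AAV-V HFD array, Sult1b1 on 2 of each, Gstt3 on 2 AAV-GP73 arrays, and Gstm5 on 1 AAV-V, 2 AAV-GP73 and 1 AAV-V HFD array. Gstm4, Sult4a1 and Ugt2b35 were measured on 1 AAV-GP73 array each, and Ugt2a1 on 1 AAV-V HFD array. Only members that passed through a group in which they were bright enough could be tested, and the counts below are of these 25.

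In AAV-GP73 livers 13 of the 25 conjugation genes were called higher than in AAV-V and 1 was called lower (limma adjusted p under 0.05 and a change of 2-fold or more). Over all 5761 genes 33.2% were called higher and 19.4% lower. The 13 were 8 Gst, 3 Ugt and 2 Sult genes, and the gene called lower was Gsta4. With all probes or spike-in controls as the base of the scaling 23 were called higher, and after normexp background correction 3 were. The median log2 fold change was 1.09 over the 25 and 0.60 over all genes, and by family it was 1.62 for the 12 Gst, 0.81 for the 10 Ugt and 2.22 for the 3 Sult genes. In AAV-V HFD livers 7 of 25 were called higher than in AAV-V and 2 lower, where all genes gave 24.8% and 18.2%, and the medians were 0.57 over the 25 and 0.37 over all genes. These 7 were 6 Gst genes and Sult2a8, the 2 lower were Gsta4 and Sult1d1, and 0 of 10 Ugt genes were called, with 1 at an unadjusted p under 0.05. The 7 were 16, 20 and 2 under these same scalings. Every comparison set 3 arrays against 3, and both of these share the AAV-V arrays. Groups without overlap were common among the 5761 genes. In AAV-GP73 2572 lay wholly above AAV-V and 1324 wholly below, and in AAV-V HFD 1950 and 1328. Between AAV-GP73 and AAV-V HFD these were 877 and 503. For the 25 conjugation genes they were 18 and 2, 7 and 2, and 3 and 0 in the same order.

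Because dim genes entered the test through the groups in which they were bright, both counts were repeated over genes measured on all 9 arrays. In AAV-GP73 7 of 12 such conjugation genes rose and 1 fell, against 15.9% and 32.6% of 2427 genes, and in AAV-V HFD 4 rose and 1 fell, against 11.3% and 30.2%. The medians were 1.36 for the 12 and -0.19 for the 2427 genes in AAV-GP73, and 0.64 and -0.36 in AAV-V HFD. The size of every change depends on the scaling, which shifts all genes together. Among all calls in AAV-GP73 63.1% were higher, and this share was 90.3% with all probes as the base of the scaling, 98.1% with spike-in controls and 16.2% after normexp background correction. For AAV-V HFD it was 57.6% against 94.7%, 98.1% and 8.03%, and 69.2% after quantile normalization, and for AAV-GP73 against AAV-V HFD 77.9% against 95.1% with spike-in controls. The conjugation genes' median stood 0.50 above that of all genes in AAV-GP73 livers and 0.20 above it in AAV-V HFD livers. A scaling by a single shift per array cannot alter these differences. They were 0.54 and 0.13 after quantile normalization and 0.63 and 0.21 with the authors' log2 values. After normexp they were 0.57 and 0.31, where the conjugation genes' own medians were -0.01 and -0.43.

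**Figure D1:**
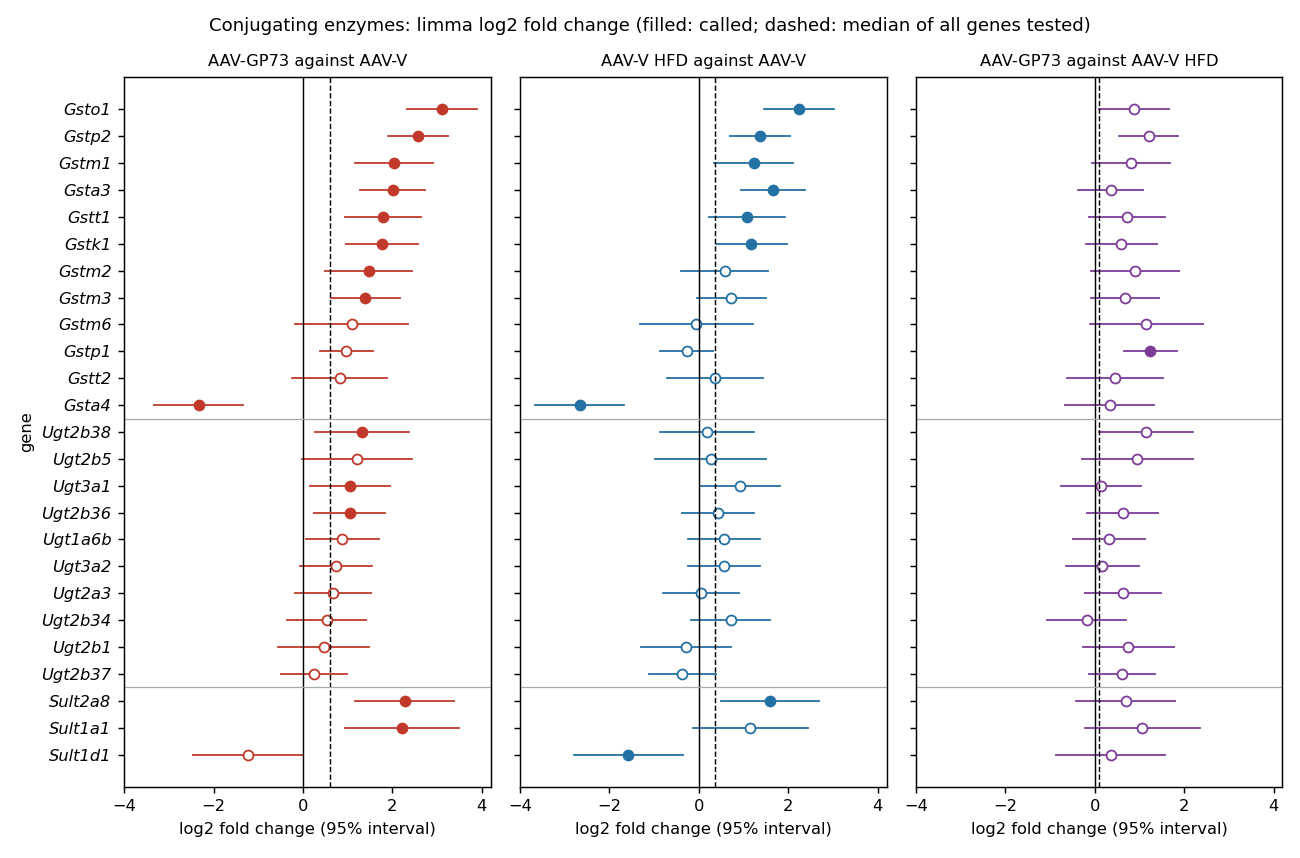
Log2 fold change of the 25 conjugation genes tested, by family from Gst (top) to Sult (bottom), with 95% intervals from limma. Filled points were called, open points were not, and the dashed line is the median of all 5761 genes (0.60, 0.37 and 0.09 from left to right). Gsta4 lies at -2.33 and -2.67 in the left and middle panels, and Gstp1 is the filled point on the right.

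The 8 glutathione transferases called higher in AAV-GP73 belonged to the alpha, kappa, mu, omega, pi and theta classes, and 6 of them were called higher in AAV-V HFD too. Gsta3, an alpha class enzyme that detoxifies aflatoxin epoxide in mice, read 7.08, 7.30 and 7.37 on the AAV-V arrays, 8.58, 9.69 and 9.50 on the AAV-GP73 arrays and 8.54, 9.02 and 9.16 on the AAV-V HFD arrays. Every AAV-GP73 and AAV-V HFD array lay above every AAV-V array, and the log2 fold change was 2.01 ± 0.33 (SE, limma adjusted p = 4.0e-04) in AAV-GP73 livers and 1.65 ± 0.33 (SE, limma adjusted p = 0.0020) in AAV-V HFD livers. A second probe of Gsta3 gave 2.30 and 1.80. Gsto1, an omega class enzyme that reduces dehydroascorbate and methylated arsenic, was well above background on 0 AAV-V arrays. It read 5.64, 6.47 and 6.38 in AAV-GP73 livers and 4.92, 5.35 and 5.60 in AAV-V HFD livers, which put it at least 4.95-fold and at least 2.70-fold higher (limma adjusted p = 8.3e-05 and 7.3e-04), although after normexp its change in AAV-V HFD was -0.14. Gstk1, the kappa class enzyme of mitochondria and peroxisomes, was likewise below the limit in AAV-V and higher by at least 3.09-fold and at least 2.05-fold in the AAV-GP73 and AAV-V HFD livers (limma adjusted p = 0.0015 and 0.018). Gstt1, a theta class enzyme, rose by 1.80 and 1.08 (limma adjusted p = 0.0020 and 0.034), while Gstt2 stood at 0.82 and 0.36 and was not called, with 0 AAV-V arrays well above background.

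The mu class held the next group of calls. Gstm1 read 5.17, 4.90 and 5.66 on the AAV-V arrays, 6.33, 7.85 and 7.66 on the AAV-GP73 arrays and 6.10, 6.62 and 6.68 on the AAV-V HFD arrays. AAV-GP73 replicate 1 was the lowest of its group and still lay above all AAV-V arrays, and the change was 2.04 ± 0.40 (SE, limma adjusted p = 0.0011) in AAV-GP73 livers and 1.22 ± 0.40 (SE, limma adjusted p = 0.023) in AAV-V HFD livers, a call lost without AAV-V replicate 2 or AAV-V HFD replicate 2 or 3 (1.03, 1.16 and 1.11). The brighter Gstm1 probe, used here, has coordinates on chromosome 5 of mm9 (chr5:117082490-117082549), outside the Gstm cluster on chromosome 3, and the probe within that cluster gave 1.55 and 0.78, of which the latter was not called (limma adjusted p = 0.092). Gstm3 read 6.40, 6.15 and 6.68 on the AAV-V arrays, 7.03, 8.33 and 8.06 on the AAV-GP73 arrays and 6.83, 7.14 and 7.41 on the AAV-V HFD arrays. Its AAV-V HFD arrays also lay above the AAV-V arrays, but only the change in AAV-GP73, 1.40 ± 0.35 (SE, limma adjusted p = 0.0051), was called, and AAV-V HFD gave 0.72 ± 0.35 (SE, limma adjusted p = 0.10). Gstm2 rose by 1.48 in AAV-GP73 (limma adjusted p = 0.013), but it was below the limit in AAV-V and its bound was at least 1.36-fold, and Gstm6 gave 1.09 and -0.06 without a call. A second Gstm6 probe was well above background on 1 AAV-V, 1 AAV-GP73 and 0 AAV-V HFD arrays and was not tested. Its means of 3.71, 2.24 and 1.30 in AAV-V, AAV-GP73 and AAV-V HFD lay within or below the lowest measurable values of these groups, so that it gives no direction.

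Gsta4, the alpha class enzyme that conjugates the lipid peroxidation product hydroxynonenal, was called lower in both comparisons. It read 5.38, 6.31 and 6.36 on the AAV-V arrays, 2.89, 4.12 and 4.04 on the AAV-GP73 arrays and 3.57, 2.51 and 3.97 on the AAV-V HFD arrays. Neither the AAV-GP73 nor the AAV-V HFD values overlapped the AAV-V values, and the change was -2.33 ± 0.45 (SE, limma adjusted p = 0.0011) in AAV-GP73 livers and -2.67 ± 0.45 (SE, limma adjusted p = 9.2e-04) in AAV-V HFD livers. Gsta4 is measured by 1 probe, which spans an intron (chr9:78046172-78047344 of mm9, forward strand, a span of 1173 bases) and is shown because the fall rests on it alone.
Gsta4 probe: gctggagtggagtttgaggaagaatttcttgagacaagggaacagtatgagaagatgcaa
With spike-in controls as the base of the scaling the change in AAV-GP73 was -0.65 and no longer called.

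**Figure D2:**
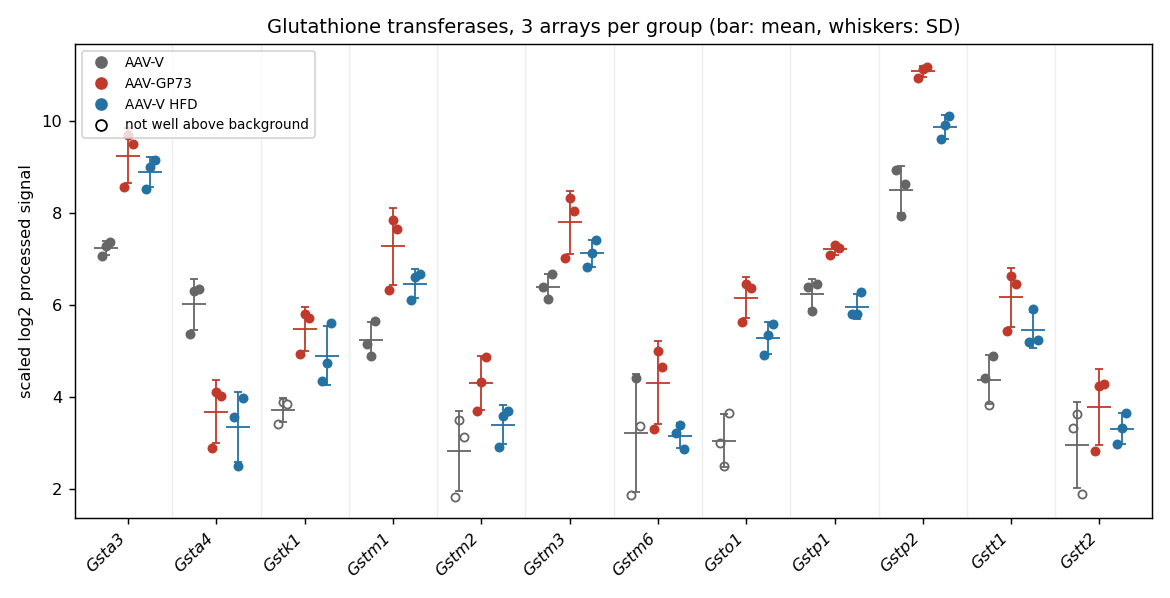
Scaled log2 signal of the 12 glutathione transferases tested on each of the 9 arrays, by group, with the mean and SD (n = 3). Open points were not well above background. Gsta4 alone has all AAV-V arrays above both other groups, and AAV-GP73 replicate 1 is the lowest red point of each gene.

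The pi class genes Gstp1 and Gstp2 lie side by side on chromosome 19. Gstp2 read 8.95, 7.95 and 8.64 on the AAV-V arrays, 10.95, 11.14 and 11.18 on the AAV-GP73 arrays and 9.61, 9.91 and 10.13 on the AAV-V HFD arrays. The groups did not overlap in any comparison, with AAV-GP73 above AAV-V HFD and AAV-V HFD above AAV-V, and the change was 2.58 ± 0.30 (SE, limma adjusted p = 9.0e-05) in AAV-GP73 livers and 1.37 ± 0.30 (SE, limma adjusted p = 0.0035) in AAV-V HFD livers. Between AAV-GP73 and AAV-V HFD it was 1.21 ± 0.30 (SE, limma adjusted p = 0.062). Gstp1 read 6.39, 5.88 and 6.46 on the AAV-V arrays, 7.08, 7.31 and 7.25 on the AAV-GP73 arrays and 5.82, 5.81 and 6.28 on the AAV-V HFD arrays. Here the AAV-V HFD arrays overlapped the AAV-V arrays, with -0.27 ± 0.27 (SE, limma adjusted p = 0.41), and AAV-GP73 stood above both, at 0.97 ± 0.27 (SE, limma adjusted p = 0.0094) against AAV-V, a 1.96-fold difference just under the threshold. Against AAV-V HFD the change of Gstp1 was 1.24 ± 0.27 (SE, limma adjusted p = 0.036), the 1 conjugation gene of 25 called higher there, where all genes gave 1.96%. In the other direction 0 of 25 were called against 0.555% of all genes and under each of the 24 alternatives, and 4 of 25 had an unadjusted p under 0.05 in limma, all higher in AAV-GP73. Against AAV-V Gstp1 was called without AAV-V replicate 1 or 3 or AAV-GP73 replicate 1 (1.05, 1.07 and 1.04). The Gstp1 call against AAV-V HFD was lost without AAV-GP73 replicate 2 or 3 or AAV-V HFD replicate 1, where 0 genes were called.

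The Gstp1 probe (chr19:4037306-4037365 of mm9, reverse strand) is annotated to transcripts of both Gstp1 and Gstp2, whereas the Gstp2 probe is annotated to Gstp2 only, so that it cannot tell transcripts of these genes apart. It is shown because the difference between AAV-GP73 and AAV-V HFD turns on it.
Gstp1 probe: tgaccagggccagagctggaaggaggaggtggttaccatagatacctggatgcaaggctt
The 250 bases upstream of the start sites of these neighbours, from RefSeq on GRCm38.p6, show how alike the genes are. Capitals mark stretches of at least 12 bases that both hold, the longest of 43 bases; the first sequence lies at chr19:4037913-4038162 and the second at chr19:4042222-4042471, both on the reverse strand.
Gstp1 upstream: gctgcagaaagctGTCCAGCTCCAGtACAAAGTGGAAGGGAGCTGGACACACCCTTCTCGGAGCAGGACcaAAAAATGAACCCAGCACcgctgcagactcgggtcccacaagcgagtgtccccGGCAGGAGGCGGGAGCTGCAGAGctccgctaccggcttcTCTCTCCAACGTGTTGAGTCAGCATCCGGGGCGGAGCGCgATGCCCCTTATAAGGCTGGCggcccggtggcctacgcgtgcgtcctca
Gstp2 upstream: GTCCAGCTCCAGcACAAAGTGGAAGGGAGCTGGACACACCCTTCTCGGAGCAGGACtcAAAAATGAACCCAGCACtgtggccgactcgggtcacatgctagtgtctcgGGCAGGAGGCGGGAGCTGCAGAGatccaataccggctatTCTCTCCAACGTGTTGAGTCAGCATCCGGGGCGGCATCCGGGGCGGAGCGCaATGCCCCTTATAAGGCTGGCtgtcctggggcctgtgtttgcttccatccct
The shared stretches cover 154 of 250 bases of Gstp1 and 166 of 250 of Gstp2.

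Of the 10 glucuronosyltransferases tested 3 were called higher in AAV-GP73. Ugt2b38, of the Ugt2b cluster on chromosome 5, read 6.13, 5.07 and 5.85 on the AAV-V arrays, 7.09, 7.08 and 6.87 on the AAV-GP73 arrays and 5.09, 7.16 and 5.36 on the AAV-V HFD arrays. The AAV-GP73 arrays lay above the AAV-V arrays and close together, whereas AAV-V HFD replicate 2 stood far above the other arrays of its group. The change was 1.33 ± 0.48 (SE, limma adjusted p = 0.032) in AAV-GP73 livers and 0.18 ± 0.48 (SE, limma adjusted p = 0.76) in AAV-V HFD livers. Ugt2b5 followed the same pattern and read 5.998, 4.55 and 4.77 on the AAV-V arrays, 6.38, 6.36 and 6.22 on the AAV-GP73 arrays and 4.58, 6.90 and 4.64 on the AAV-V HFD arrays. AAV-V HFD replicate 2 lay above all AAV-GP73 arrays and AAV-V replicate 1 just below them, and the change in AAV-GP73, 1.21 ± 0.57 (SE, limma adjusted p = 0.080), was not called, nor was that in AAV-V HFD, 0.26 ± 0.57 (SE, limma adjusted p = 0.71). Ugt2b5 was called higher in AAV-GP73 without AAV-V replicate 1 (1.66) or AAV-V HFD replicate 2 (1.22).

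Ugt2b36, which was below the limit on all AAV-V arrays, read 4.78, 4.56 and 4.65 in AAV-GP73 livers and 3.44, 4.96 and 3.73 in AAV-V HFD livers, and its change in AAV-GP73, 1.05 ± 0.37 (SE, limma adjusted p = 0.026), had a bound of at least 1.75-fold. Its probe is annotated to transcripts of Ugt2b36 and Ugt2b37. In AAV-V HFD Ugt2b36 gave 0.43 ± 0.37 (SE, limma adjusted p = 0.33), with replicate 2 again the highest. Ugt3a1, an enzyme that uses UDP-N-acetylglucosamine in place of UDP-glucuronate, read 3.62, 3.52 and 3.54 in AAV-GP73 livers and 2.86, 4.04 and 3.37 in AAV-V HFD livers. All its AAV-V arrays were below the limit and no bound over 1 could be set, so that its fitted change, 1.06 ± 0.41 (SE, limma adjusted p = 0.041), has no measured size, and in AAV-V HFD it was 0.93 ± 0.41 (SE, limma adjusted p = 0.073). The calls of Ugt2b36, Ugt2b38 and Ugt3a1 were each lost without AAV-V replicate 2 or 3 or any 1 AAV-GP73 array, where Ugt2b36 lay between 0.91 and 1.12, Ugt2b38 between 1.01 and 1.40 and Ugt3a1 between 0.62 and 1.11, and that of Ugt3a1 also without AAV-V HFD replicate 3. The change of Ugt3a1 in AAV-V HFD was called without AAV-V replicate 1 or AAV-V HFD replicate 1 (1.31 and 1.21).

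The other Ugt genes were not called in either comparison. Ugt1a6b, a phenol glucuronosyltransferase, read 6.68, 6.12 and 6.46 on the AAV-V arrays, 7.33, 7.40 and 7.17 on the AAV-GP73 arrays and 6.47, 7.92 and 6.56 on the AAV-V HFD arrays. Its AAV-GP73 arrays lay above its AAV-V arrays, with a change of 0.88 ± 0.37 (SE, limma adjusted p = 0.057), and AAV-V HFD gave 0.56 ± 0.37 (SE, limma adjusted p = 0.22). The Ugt1a genes share their last exons, and this probe is annotated to Ugt1a10, Ugt1a6a, Ugt1a6b and Ugt1a7c, so that it reads the locus rather than 1 gene. A second probe in the same stretch of chromosome 1, annotated to Ugt1a6b only, gave -0.20 in AAV-GP73 livers and -0.50 in AAV-V HFD livers. These were in the opposite direction and not called, so that the direction of Ugt1a6b itself is not settled by its probes. Ugt2b34 read 4.01, 4.23 and 4.45 on the AAV-V arrays, 4.61, 4.96 and 4.72 on the AAV-GP73 arrays and 4.96, 5.87 and 4.00 on the AAV-V HFD arrays. AAV-V HFD replicate 2 was the highest and replicate 3 the lowest of the 9 arrays, and the change was 0.53 ± 0.40 (SE, limma adjusted p = 0.26) in AAV-GP73 livers and 0.71 ± 0.40 (SE, limma adjusted p = 0.15) in AAV-V HFD livers. The latter was called higher without AAV-V HFD replicate 3 (1.18) and was 0.25 without replicate 2. Ugt2a3 gave 0.68 and 0.05, Ugt2b1 0.46 and -0.29, Ugt2b37 0.24 and -0.37 and Ugt3a2 0.74 and 0.57. Ugt2b1 and Ugt3a2 were well above background on 0 AAV-V arrays, and Ugt2b1 on 1 AAV-V HFD array, so that their fitted changes rest partly on values below the limit. After normexp the changes of Ugt2b34, Ugt2b36 and Ugt3a1 were below 0 in both comparisons, so that the direction for these dim genes depends on the background correction.

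**Figure D3:**
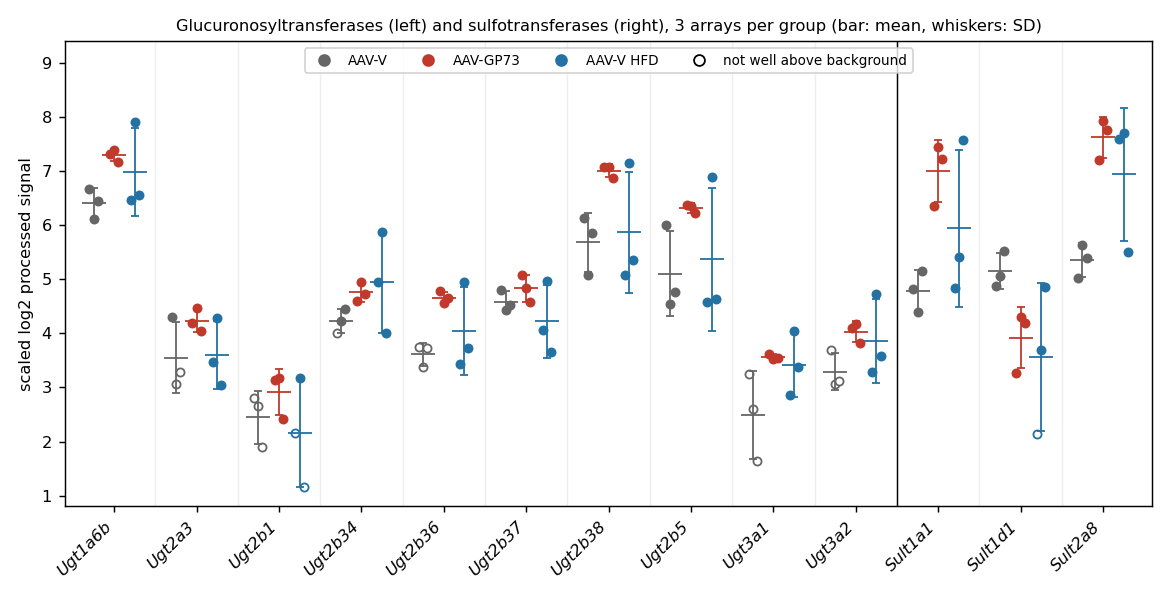
Scaled log2 signal of the 10 glucuronosyltransferases and 3 sulfotransferases tested on each of the 9 arrays, by group, with the mean and SD (n = 3). Open points were not well above background. The AAV-GP73 arrays lie close together for most Ugt genes, while the highest AAV-V HFD point is replicate 2 for all 10.

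AAV-V HFD replicate 2 was the highest array of its group for 10 of 10 Ugt genes, against 31.6% of all genes, and AAV-V replicate 1 was so for 9 of 10, against 32.9%. In AAV-V, however, 4 of the 10 (Ugt1a6b, Ugt2b37, Ugt2b38 and Ugt2b5) were well above background on all 3 arrays, and each of these was highest on replicate 1, whereas for the others some or all of the values ranked were below the limit. In AAV-V HFD replicate 2 the Ugt genes exceeded the mean of the group's other arrays by a median of 1.38 on the log2 scale (0.93 to 2.29). The SD over 3 arrays had a median of 0.81 in AAV-V HFD, 0.41 in AAV-V and 0.15 in AAV-GP73 over the 10 genes, from 0.05 for Ugt3a1 to 0.42 for Ugt2b1 in AAV-GP73. The Gst genes did not follow the Ugt genes on that array, where their median difference was 0.07. On the same array 8 of 10 pericentral hepatocyte genes lay above the mean of the other arrays (median 0.90) and 11 of 13 periportal genes below it (median -1.17). Above it lay 11 of 12 male-predominant genes (median 0.82), 2 of 2 female-predominant genes (median 1.24) and 4 of 4 deconjugating genes (median 1.01). The share of all genes above or below that mean was not counted. Over all genes this array was the highest of its group for 31.6% and the lowest for 26.7%. The part of these lists in the Ugt values was not tested. Against AAV-V the calls of 3 of these lists were 6 higher and 2 lower of 10 pericentral genes in both comparisons, 3 and 2 of 13 periportal genes in AAV-GP73 against 1 and 3 in AAV-V HFD, and 4 and 0 of 12 male-predominant genes against 1 and 2 (6 and 5 of the 12 had an unadjusted p under 0.05). All genes gave 33.2% and 19.4% in AAV-GP73, and 24.8% and 18.2% in AAV-V HFD. Without this array the changes in AAV-V HFD were -0.46 for Ugt2b38, -0.49 for Ugt2b5 and -0.022 for Ugt2b36, opposite to those with all arrays, and 0.10 for Ugt1a6b, and without AAV-V replicate 2 Ugt2b38 (-0.14) and Ugt2b5 (-0.03) turned as well.

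Ugt2b5, Ugt2b37 and Ugt2b38 lie in the Ugt2b cluster on chromosome 5, and the probe of each is annotated to 1 gene only. Their transcripts were not compared. The probes of Ugt2b5 and Ugt2b37 share 18 bases.
Shared by the Ugt2b5 and Ugt2b37 probes: aactttcagcctcattct
The Ugt2b38 probe, annotated to that gene only (chr5:87839345-87839404 of mm9, reverse strand), is shown with them because it carries the call.
Ugt2b38 probe: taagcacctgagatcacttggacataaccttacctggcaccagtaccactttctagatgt
The upstream sequences of these 3 genes, from RefSeq on GRCm38.p6, are printed to show how alike they are. The peak in AAV-V HFD replicate 2 was not particular to them, since all 10 Ugt genes tested had it, also those on chromosomes 1 and 15. The part of the upstream sequences in it was not tested. Capitals mark stretches of at least 12 bases present in all 3, which cover 133 of 250 bases of each, the longest 62 bases. The windows are chr5:87140341-87140590, chr5:87254789-87255038 and chr5:87424204-87424453, all on the reverse strand.
Ugt2b5 upstream: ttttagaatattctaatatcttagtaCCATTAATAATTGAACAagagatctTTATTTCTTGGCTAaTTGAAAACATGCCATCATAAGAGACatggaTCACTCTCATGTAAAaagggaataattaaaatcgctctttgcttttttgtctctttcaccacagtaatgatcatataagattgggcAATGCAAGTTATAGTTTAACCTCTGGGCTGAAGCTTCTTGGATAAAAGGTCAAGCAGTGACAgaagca
Ugt2b37 upstream: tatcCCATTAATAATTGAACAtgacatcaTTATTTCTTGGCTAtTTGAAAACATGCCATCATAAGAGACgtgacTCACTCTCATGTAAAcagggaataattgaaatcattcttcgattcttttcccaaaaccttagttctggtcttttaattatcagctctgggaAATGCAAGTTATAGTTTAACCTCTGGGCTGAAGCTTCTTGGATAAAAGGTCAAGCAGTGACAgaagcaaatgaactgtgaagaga
Ugt2b38 upstream: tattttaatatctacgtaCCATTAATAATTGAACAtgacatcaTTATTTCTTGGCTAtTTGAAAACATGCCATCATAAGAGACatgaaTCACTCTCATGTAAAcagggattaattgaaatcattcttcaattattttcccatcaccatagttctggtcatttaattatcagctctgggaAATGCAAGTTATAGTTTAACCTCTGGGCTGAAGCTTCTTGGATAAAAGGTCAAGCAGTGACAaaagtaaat
Ugt2b37 read 4.80, 4.44 and 4.53 on the AAV-V arrays, 5.08, 4.84 and 4.58 on the AAV-GP73 arrays and 4.05, 4.96 and 3.65 on the AAV-V HFD arrays. It shared the high replicate 2 of AAV-V HFD, and its AAV-GP73 values overlapped those of AAV-V.

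RefSeq gave a window of 250 bases before to 50 after the start site for 21 of the 25 genes tested. The letters TGACNNNGC, the core of the antioxidant response element that NRF2 binds, occurred on either strand in that of 1 gene, Gsta3, and in 14.0% of 27025 gene symbols with such a window. The letters GCGTG, the core of the dioxin receptor's element, occurred in 3 of 21 (Gstm1, Gstp1 and Sult1d1) against 35.2%, and GTTAAT, the core of the HNF1 site, in 5 of 21 (Gsta3, Sult1a1, Sult1d1, Ugt2a3 and Ugt3a1) against 8.24%. GCGTG can begin in the last letters of TGACNNNGC, and elements farther from the start were not searched. Only these exact letters were searched, not variants of them. The Gstp1 and Gstp2 upstream sequences above both hold TGAGTCAGC, which has G where TGACNNNGC has C and was therefore not counted.

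Of the sulfotransferases 3 of 19 could be tested. Sult2a8, a bile acid sulfotransferase of mouse liver, read 5.02, 5.64 and 5.39 on the AAV-V arrays, 7.20, 7.92 and 7.76 on the AAV-GP73 arrays and 7.59, 7.71 and 5.51 on the AAV-V HFD arrays. The AAV-GP73 arrays were all above the AAV-V arrays, but AAV-V HFD replicate 3 fell among the AAV-V values while replicates 1 and 2 lay near those of AAV-GP73. The change was 2.27 ± 0.50 (SE, limma adjusted p = 0.0024) in AAV-GP73 livers and 1.59 ± 0.50 (SE, limma adjusted p = 0.020) in AAV-V HFD livers, and the latter call was lost without AAV-V replicate 1 or 3 or AAV-V HFD replicate 1 or 2 (1.42, 1.60, 1.26 and 1.21) and was 2.29 without AAV-V HFD replicate 3. Sult1a1, the main phenol sulfotransferase, read 4.83, 4.40 and 5.15 on the AAV-V arrays, 6.35, 7.45 and 7.22 on the AAV-GP73 arrays and 4.83, 5.42 and 7.58 on the AAV-V HFD arrays. Here AAV-V HFD replicate 3 was the highest of its group, above all AAV-GP73 arrays, opposite to Sult2a8 on the same array. Its change was 2.22 ± 0.59 (SE, limma adjusted p = 0.0067) in AAV-GP73 livers and 1.15 ± 0.59 (SE, limma adjusted p = 0.11) in AAV-V HFD livers, the latter 0.33 without AAV-V HFD replicate 3 and called without replicate 1 (1.71), and a second probe gave 2.48 and 1.15.

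Sult1d1, which sulfates catecholamines, was called lower in AAV-V HFD. It read 4.87, 5.06 and 5.52 on the AAV-V arrays, 3.27, 4.30 and 4.19 on the AAV-GP73 arrays and 2.14, 3.69 and 4.87 on the AAV-V HFD arrays. All AAV-GP73 and AAV-V HFD arrays lay below the lowest AAV-V array, although AAV-V HFD replicate 3 did so barely and 1 AAV-V HFD array was not well above background, and the change was -1.23 ± 0.56 (SE, limma adjusted p = 0.074) in AAV-GP73, not called but called lower without AAV-V HFD replicate 1 (-1.23) or 3 (-1.22), and -1.58 ± 0.56 (SE, limma adjusted p = 0.032) in AAV-V HFD. That call was lost without AAV-V replicate 2 or 3 or AAV-V HFD replicate 1 or 2 (-1.64, -1.40, -0.87 and -1.63). A second probe of Sult1d1 in the same stretch of chromosome 5 was well above background on 0 AAV-V, 3 AAV-GP73 and 1 AAV-V HFD arrays and gave 1.56 in AAV-GP73 livers and 0.06 in AAV-V HFD livers, so that the direction of Sult1d1 is not settled by its probes. The probe used (chr5:87985008-87985067 of mm9, reverse strand) is shown because the fall was seen with it alone.
Sult1d1 probe: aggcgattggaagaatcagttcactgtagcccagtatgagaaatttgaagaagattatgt

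Within AAV-GP73 the arrays also differed by family. Replicate 1 was the lowest of its group for 12 of 12 Gst genes and 3 of 3 Sult genes, against 39.7% of all genes, and lay below the other arrays by a median of -1.06 for Gst and -0.97 for Sult, but stood at 0.10 for Ugt. On that array all 4 erythroid genes tested lay above the mean of the other AAV-GP73 arrays, by a median of 1.88. The share of all genes above that mean was not counted, and replicate 1 was the highest of its group for 37.6% of all genes. The part of the erythroid signal in the Gst values was not tested. Without it the changes of Gsta3, Gstm1 and Gsto1 in AAV-GP73 were 2.35, 2.52 and 3.38. In AAV-V HFD replicate 3 was the highest array for 10 of 12 Gst genes, against 41.5% of all genes.

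**Figure D4:**
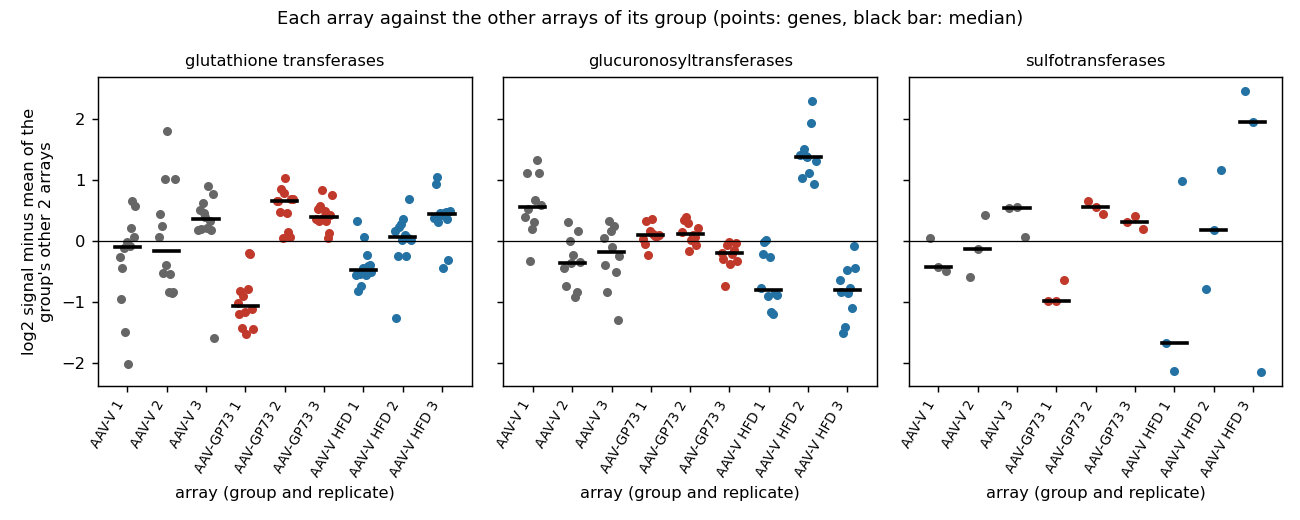
Difference between each array's log2 signal and the mean of the other arrays of its group, for each tested gene of the 3 families (points), with the median as a black bar. The Ugt points of AAV-V HFD replicate 2 (median 1.38) and the Gst points of AAV-GP73 replicate 1 (median -1.06) stand apart from 0.

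Genes that supply the donors of conjugation were examined beside the enzymes. Of 7 tested genes of glutathione synthesis and recycling 6 were called higher in AAV-GP73 livers and 4 in AAV-V HFD livers, and 0 lower in either (7 and 5 had an unadjusted p under 0.05). The shares over all genes, against which each list has to be read, were 33.2% up and 19.4% down in AAV-GP73 livers, with 24.8% and 18.2% in AAV-V HFD livers. Only Cbs of the 7 was measured on all 9 arrays, so that the others entered through the groups in which they were bright. Gclc and Gclm, the subunits of glutamate cysteine ligase, gave 3.16 (limma adjusted p = 8.1e-05) and 2.02 (limma adjusted p = 1.0e-04) in AAV-GP73, at least 1.84-fold and at least 2.52-fold, since both were below the limit in AAV-V. Cbs, which begins the transsulfuration route to cysteine, rose by 2.70 (limma adjusted p = 2.4e-04) in AAV-GP73 livers and 1.81 (limma adjusted p = 0.0036) in AAV-V HFD livers. The 6 tested genes of UDP-glucuronate supply were divided in AAV-GP73 livers, with 3 called higher and 1 lower and log2 fold changes from -1.18 to 3.55. In AAV-V HFD livers 3 were called higher and 0 lower, and in AAV-GP73 against AAV-V HFD 0 were higher and 1 lower. Ugdh of this list, which oxidises UDP-glucose to UDP-glucuronate, was at least 2.95-fold and at least 1.84-fold higher (limma adjusted p = 6.1e-04 and 0.0047). Only 1 of the 6 was measured on all 9 arrays. For the sulfate donor PAPS 3 of 3 were called higher in AAV-GP73 livers and 1 in AAV-V HFD livers, among them Papss2, the PAPS synthase, at 1.21 (limma adjusted p = 0.016) in AAV-GP73, and 0 of the 3 were measured on all 9 arrays.

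Among other conjugating enzymes, Gstz1 rose by 1.76 (limma adjusted p = 3.4e-04) in AAV-GP73 livers and 1.85 (limma adjusted p = 5.9e-04) in AAV-V HFD livers, and the leukotriene synthase Ltc4s fell in both, at -1.81 (limma adjusted p = 1.9e-04) and -1.46 (limma adjusted p = 0.0011). Of 9 genes for methyl, acetyl and amino acid conjugation 4 rose in AAV-GP73 livers and 1 in AAV-V HFD livers, and of 4 deconjugating genes 2 rose in AAV-GP73 whereas 1 fell in AAV-V HFD, and 5 of the 9 and 0 of the 4 were measured on all 9 arrays. Glyat, the glycine N-acyltransferase, was called higher in AAV-GP73 than in AAV-V HFD, at 1.20 (limma adjusted p = 0.038). Of 15 NRF2 target genes 10 were called higher in AAV-GP73 livers and 7 in AAV-V HFD livers and 0 lower (11 and 8 had an unadjusted p under 0.05), with a median of 1.47 and 0.97 against 0.60 and 0.37 for all genes, whose shares called higher were 33.2% and 24.8%. Gclc, Gclm and Gsr are on this list and on that of glutathione synthesis, and Ephx1 on this list and on that of deconjugation. Of the 3 NRF2 targets measured on all 9 arrays only Prdx1, a peroxiredoxin, was called higher, in both comparisons. Of 9 receptors and factors that control conjugation genes 6 were called higher in each comparison, against the same 33.2% and 24.8%, with 3 of the 9 measured on all 9 arrays, among them Hnf4a at 2.46 (limma adjusted p = 1.4e-04) in AAV-GP73. The cytochrome targets of such receptors split, with 3 of 6 higher and 1 lower in AAV-GP73, but in AAV-V HFD 0 were higher and 3 lower (4 had an unadjusted p under 0.05), against 18.2% lower among all genes, and only Cyp2c29 of the 6, lower in both, was measured on all 9 arrays. Cyp4a14, a PPARα target, was in AAV-GP73 at least 1.86-fold higher than in AAV-V HFD (limma adjusted p = 8.3e-04).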

How the data were processed

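Liver RNA of 9 samples, 3 per group as labelled, was measured on 1-colour Agilent arrays. The authors deposited intensity values from scanner software, Feature Extraction 12.0.3.1 per the file headers (the submitters' processing notes name version 10.7 and limma), with background and trend removed within each array and no scaling between arrays. A second table that the authors deposited gives a log2 value for each probe on each array. All 56605 of its probes matched those of the scanner, the column medians were 0.799 to 0.801, the correlation with the scanner's log2 signal was 0.986 to 0.9998, and the normalization is not given in the sources used here, so that they served as an alternative. Precision is limited by how many arrays there are. Saturated spots numbered 0.

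The members and gene lists were chosen with earlier results of these data known. Calculations used R 4.3.3 and limma 3.58.1. Spots marked as outliers were left out and spots of a probe averaged. Scaling made equal between arrays the 75th percentile of 2667 non-control probes that were well above background on all 9, because under 1 in 5 spots were above background. Genes with a brightest probe well above background throughout at least 1 group (5761) were fitted with lmFit and eBayes, all 3 groups together, with Benjamini-Hochberg adjustment over all of them. Adjusted p values in the text are from this limma fit. Genes were called at an adjusted p under 0.05 and a fold change of at least 2. A lower bound sets each array of the dimmer group to the higher of its own value and the lowest signal well above background on it. An exact permutation test of 3 against 3 arrays cannot go below p = 0.1 and was not used. Every tested member was named, and values on every array were given for the 4 brightest of each family and up to 3 rises and 3 falls called in a comparison with AAV-V, and for Ugt2b37, which was added after its values were seen. From the gene lists at most 4 genes were named per list, and 1 gene outside the conjugation enzymes is not reported here. Coordinates of probes were read from the scanner files (mm9), and RefSeq windows are on GRCm38.p6. Alternatives were other scalings, quantile normalization, normexp with an offset of 50, the log2 values, other filters, each probe by itself, other moderation, no fold threshold, the replicate number as a block, the methods' t-test and leaving out each array. In simulated data 78.5% of 200 genes changed by 2 on the log2 scale were recovered over 5759 genes in the comparison of AAV-GP73 with AAV-V, and 5 that had not been changed were called. The simulated noise was independent between genes, without a detection floor, a scaling step or shifts of a whole array. Far fewer genes were changed than were called in the real data, so that these rates do not describe the real comparison. Correlations of residuals between equal replicate numbers lay between -0.12 and 0.17, with 2 of 9 over 0.1, and the numbers were not treated as pairs.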

Additional observations from a re-analysis of the deposited data

Results flagged for a closer look

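The change of Gstp1 differed between the groups compared with AAV-V, since its direct difference between AAV-GP73 and AAV-V HFD was 1.24 on the log2 scale (95% interval 0.65 to 1.84, limma adjusted p = 0.036), with all 3 AAV-GP73 arrays above all 3 AAV-V HFD arrays. The arrays of AAV-V HFD lay on another slide, and the part of the slide in this difference cannot be told apart from diet. The probe used for Gstp1 is annotated to transcripts of both Gstp1 and Gstp2, so that the difference cannot be assigned to Gstp1 alone. The adjacent Gstp2, whose probe is annotated to Gstp2 only, differed by 1.21 (limma adjusted p = 0.062).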

How the results depend on the processing

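Over all alternatives 100 counts of called conjugation genes stayed within 1.5 times the value reported and 44 did not, and of the changes of named genes 585 kept their direction and their side of the threshold, 51 were no longer called, 40 were newly called and 18 turned direction. The cause of each change was not tested, except where the construction shows it.

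Of the genes higher in AAV-GP73 than in AAV-V (13), 23 were called with all probes as the base of the scaling, 23 with spike-in controls, 3 after normexp, and 7 among genes measured on all arrays. Of those lower (1), 0 were called with spike-in controls, 2 with the authors' log2 values, only the groups compared, the replicate block and the unadjusted t-test, and 20 with no filter, where dim probes stand at the higher floor of the scaled AAV-V arrays. Of those higher in AAV-V HFD (7), 16 were called with all probes, 20 with spike-in controls, 2 after normexp, 4 among genes measured on all arrays and 4 by the adjusted t-test. Of those lower (2), 1 was called with all probes, with spike-in controls, among genes measured on all arrays, with only the groups compared and by both t-tests, and 20 with no filter. Of those higher in AAV-GP73 than in AAV-V HFD (1), 0 were called after quantile normalization, with the authors' values, no filter, the replicate block and the adjusted t-test, and 2 with spike-in controls, among genes measured on all arrays (fewer genes tested), with only the groups compared, with trend and robust moderation and by the unadjusted t-test. The replicate block moved no other count by over 1.5 times.

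Leaving out each array gave 9 to 16, 1 to 2, 4 to 8, 1 to 3, 0 to 2 and 0 to 0 genes in the same order, the last being those lower in AAV-GP73 than in AAV-V HFD. The 4 came without AAV-V HFD replicate 2 and the 9 without AAV-GP73 replicate 3. Of genes lower in AAV-GP73 2 were called without AAV-V HFD replicate 1 or 3. Of genes lower in AAV-V HFD 1 was called without AAV-V replicate 2 or 3 or AAV-V HFD replicate 1 or 2, and 3 without AAV-GP73 replicate 2. Of genes higher in AAV-GP73 than in AAV-V HFD 2 were called without AAV-V replicate 2 or AAV-V HFD replicate 3.

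Directions turned with all probes for Gstp1 in AAV-V HFD (0.68) and with spike-in controls for Gstp1 in AAV-V HFD (1.06) and Sult1d1 in AAV-GP73 (0.45). After normexp they turned in AAV-GP73 for Ugt2b34 (-0.52), Ugt2b36 (-0.45) and Ugt3a1 (-0.61), and in AAV-V HFD for Gsto1 (-0.14), Ugt2b34 (-0.43), Ugt2b36 (-0.68), Ugt2b38 (-0.28), Ugt2b5 (-0.30) and Ugt3a1 (-0.75). With the authors' values Ugt2b38 in AAV-V HFD turned to -0.13. Leaving out arrays moved the changes in AAV-V HFD from -0.46 to 0.57 for Ugt2b38 (-0.14 without AAV-V replicate 2), from -0.49 to 0.71 for Ugt2b5 (-0.03 without AAV-V replicate 2) and from -0.022 to 0.73 for Ugt2b36 (-0.022 without AAV-V HFD replicate 2). The dim AAV-V arrays limit the smallest measurable change.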
